A study of Homo sapiens with 10 samples.

Results

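The genes described here are 37 genes of sterol and fatty acid synthesis and of their control, measured by RNA sequencing in 3D spheroids of the human breast cancer line T47D. They were chosen as genes driven by the sterol regulatory element-binding proteins (SREBP) or by the liver X receptors (LXR), and each of the 37 was present among the 13920 genes of the count table. In all, 4 wild-type (WT) libraries, 4 libraries of the SAMHD1-KO clone A1 and 2 of the SAMHD1-KO clone A2 were sequenced. Experiments 10, 11, 15 and 16 each gave 1 WT and 1 clone A1 library, and experiments 15 and 16 also gave 1 clone A2 library each. Experiments 10 and 11 are called the earlier pair and experiments 15 and 16 the later pair. In the KO clones a CRISPR-Cas9 construct had been directed to exon 5 of SAMHD1, the gene of a dNTP-degrading enzyme. The study calls the control cells wild-type and does not say whether they were transfected or cloned. Each KO line is 1 clone, so that the effect of the knock-out and other differences between clones cannot be told apart. The study's methods describe biological duplicates, and the labels separate the libraries of a group by experiment number alone. P-values set a difference between groups against the spread between libraries of a group, and they hold no spread between independent clones.

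Cells make cholesterol from acetyl-CoA through mevalonate, farnesyl diphosphate and squalene, and fatty acids from the same acetyl-CoA through malonyl-CoA. When membrane cholesterol is low, SCAP carries the SREBP precursors from the endoplasmic reticulum to the Golgi apparatus, where they are cleaved into active transcription factors, whereas INSIG proteins hold them back when sterols are plentiful. SREBF2 encodes the factor known mainly for sterol genes and SREBF1 the factor known mainly for fatty acid genes, and oxidised sterols activate LXR, which turns on sterol export.

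The promoters of these genes were inspected first, since SREBP factors bind sterol regulatory elements, usually beside NF-Y, a factor that binds CCAAT boxes. RefSeq promoter windows on GRCh38.p14, from 250 bases before to 50 bases after a gene's start, were available for 33 of the 37 genes. The core TCACNCCAC, searched on both strands, was found in 1 of the 33 genes (3.03%), SREBF2, against 1.39% of all 27305 genes with a window. CCAAT was found on either strand in 25 of the 33 genes (75.8%), against 39.7% of all genes and 43.2% of the genes in the count table. CACGTG, the E-box, was found in 5 genes (15.2%), against 8.77% of all genes and 12.7% of those in the table. In windows of IDI1 and NSDHL a CCAAT on one strand overlapped one on the other, and no match in the printed stretches overlapped another. A match describes letters in these windows, not a bound site.

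The SREBF2 stretch is shown because it alone held the sterol element core, and those of HMGCS1, MSMO1 and FDPS because they are sterol enzyme genes with lower RNA in clone A2 and at least 2 CCAAT boxes found in their first window, a choice made after their values were seen. MVD and NSDHL also met this description, with smaller decreases in clone A2, and are not shown because at most 4 stretches were printed. Capitals mark the core TCACNCCAC in SREBF2 and CCAAT, or ATTGG where it lies on the other strand, in all 4. They lie at chr22:41832922-41833041 on the plus strand (SREBF2), chr5:43313488-43313587 on the minus strand (HMGCS1), chr4:165327464-165327659 on the plus strand (MSMO1) and chr1:155308670-155308839 on the plus strand (FDPS), all upstream of the start and read in the direction of the gene.
SREBF2: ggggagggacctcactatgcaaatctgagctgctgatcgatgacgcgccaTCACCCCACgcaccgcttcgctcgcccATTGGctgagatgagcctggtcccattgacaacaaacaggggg
HMGCS1: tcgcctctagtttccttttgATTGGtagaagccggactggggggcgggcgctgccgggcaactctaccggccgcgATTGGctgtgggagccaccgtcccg
MSMO1: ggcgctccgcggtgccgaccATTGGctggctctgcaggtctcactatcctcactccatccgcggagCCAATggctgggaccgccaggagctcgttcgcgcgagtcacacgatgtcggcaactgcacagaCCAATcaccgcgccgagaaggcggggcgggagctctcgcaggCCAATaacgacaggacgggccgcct
FDPS: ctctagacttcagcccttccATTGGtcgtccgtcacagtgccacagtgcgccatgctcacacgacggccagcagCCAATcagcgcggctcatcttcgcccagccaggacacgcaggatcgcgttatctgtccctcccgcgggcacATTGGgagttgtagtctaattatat
The SREBF2 stretch held 1 sterol element core and 1 CCAAT box, and the stretches of HMGCS1, MSMO1 and FDPS held 2, 4 and 3 CCAAT boxes.

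Total counts ranged from 40077369 to 51311482 per library, and mitochondrial genes held 7.79% to 13.9% of them, with the highest share in clone A1 of experiment 15. SAMHD1 RNA stood at 49.8 to 56.4 CPM (the count of a gene relative to the library total, scaled by TMM so that libraries can be compared) in the 4 WT libraries. Clone A1 stood at 22.5 and 23.0 CPM in the earlier pair of experiments and at 6.44 and 6.15 CPM in the later pair, clone A2 at 23.6 and 20.2 CPM, so each KO library lay below each WT library. Of 8 luminal breast markers, 7 were in the table. KRT18 stood at 36.3 to 60.3 CPM, FOXA1 at 14.1 to 26.75, PGR at 15.4 to 20.7 and GATA3 at 15.4 to 24.8. KRT8 was lower, at 3.10 to 9.07 CPM. ESR1 (0.183 to 1.59 CPM) and EPCAM (0.348 to 1.78 CPM), also markers of this line, were close to the bottom of the range. The markers of fibroblasts (1 of 5), immune cells (2 of 5), endothelium (1 of 3) and adipocytes (1 of 3) that the table held did not exceed 11.4 CPM in any library. The rest of these markers and those of hepatocytes (0 of 2) were absent. Genes with a 0 in any library had been removed, so levels of the absent markers are not known. By edgeR's test FOXA1 was higher than in WT of experiments 15 and 16 (0.47 in clone A1 and 0.32 in clone A2, log2 scale). KRT8 was lower there (−0.70 and −0.97). In clone A1 of experiments 10 and 11, 1 of the 7 luminal markers was called, lower than in WT (14.3%, against 0.194% of all genes). KRT8 had 9.07 and 8.30 CPM in WT and 4.04 and 5.025 CPM in clone A1 of these experiments. Between the WT pairs 4 of the 7 were called, 2 higher and 2 lower (57.1%, against 16.4% of all genes). The part of such shifts in the values of the 37 genes was not tested.

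Of the 17 sterol synthesis enzymes, 9 were lower in clone A2 than in WT of the same experiments and 8 were lower than in clone A1. Compared with WT of experiments 15 and 16, 13 of the 37 genes were lower in clone A2 and 0 were higher (35.1% called) by edgeR's quasi-likelihood test with Benjamini-Hochberg adjustment over all genes at a threshold of 0.05, against 16.4% of all 13920 genes, 9.07% lower and 7.33% higher. Among the 13 were SREBF2, the mevalonate enzymes HMGCS1, MVD, IDI1 and FDPS and the later enzymes FDFT1, SQLE, CYP51A1, MSMO1 and NSDHL. The median log2 fold change of the 37 genes was −0.19, that of all genes 0.0071, and 29 of the 37 lay below 0. For the 17 sterol synthesis enzymes taken alone the median was −0.29. PMVK (0.12), TM7SF2 (0.041) and HSD17B7 (0.0067) lay above 0 and did not pass the test. Without clone A2 of experiment 16, 8 of the 37 genes were called in place of 13, and 1020 of all genes in place of 2283. In a bulk library fewer cells that express a gene and less of its RNA per cell cannot be told apart.

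Compared directly with clone A1 in experiments 15 and 16, clone A2 had 12 genes called lower and 0 higher (32.4%), against 4.14% of all genes, 3.07% lower and 1.07% higher. The median was −0.27 over the 37 genes, with 33 below 0, and 0.0032 over all genes. The count of 12 went to 5 without clone A2 of experiment 16 and to 6 without clone A2 of experiment 15 or clone A1 of experiment 16, while calls over all genes went from 576 to 268, 327 and 391. Clone A1 itself had 3 genes called against WT in experiments 15 and 16 (8.11%), near the 8.24% of all genes (3.95% higher, 4.29% lower), with CYP51A1 and FASN lower and ELOVL6 higher and a median of 0.0098. That count went to 0 without WT of experiment 15, WT of experiment 16 or clone A1 of experiment 15, to 1 without clone A1 of experiment 16, and to 7 and 8 without WT of experiments 10 and 11. Calls over all genes moved as well, from 1147 to between 343 and 495 in the first 4 of these fits and to 2000 in both of the last. In experiments 10 and 11, 0 of the 37 genes were called in clone A1 against WT, with 8 at unadjusted p under 0.05 and 0 by DESeq2, where 0.194% of all genes were called (27 genes, and 1476 at unadjusted p under 0.05). Without WT of experiment 10, 8 of the 37 and 1361 of all genes were called in that comparison. These comparisons share libraries: both clones were set against the same 2 WT libraries, and clone A2 against clone A1 used the KO libraries again.

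Between WT of experiments 15 and 16 and WT of experiments 10 and 11, 6 of the 37 genes were called, 3 higher and 3 lower (16.2%), against 16.4% of all genes, 8.61% higher and 7.74% lower. MSMO1, SC5D and ELOVL6 were higher in the later pair, and ACACA, FASN and NR1H2 were lower. In this fit the share called was near that of all genes, and leaving out 1 library moved the count to 3 of the 37 (without WT of experiment 15 or of experiment 16) or to 14 (without WT of experiment 10), with 1002, 820 and 3658 of all genes called in place of 2276. The replicate block by experiment number called more of the 37 and of all genes between the WT pairs and for the change described next, as given below. Values are compared within an experiment pair unless stated. A change of the clone A1 effect between the pairs was tested as the difference between both contrasts, and 0 of the 37 genes were called (9 at unadjusted p under 0.05, and 3 called by DESeq2), against 2.5% of all genes (1.56% higher, 0.941% lower). That count was 5 without WT of experiment 10, and in experiment 11 it was 2 when WT was left out and 1 when clone A1 was, with 1123, 538 and 159 of all genes called in place of 348.

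**Figure D1:**
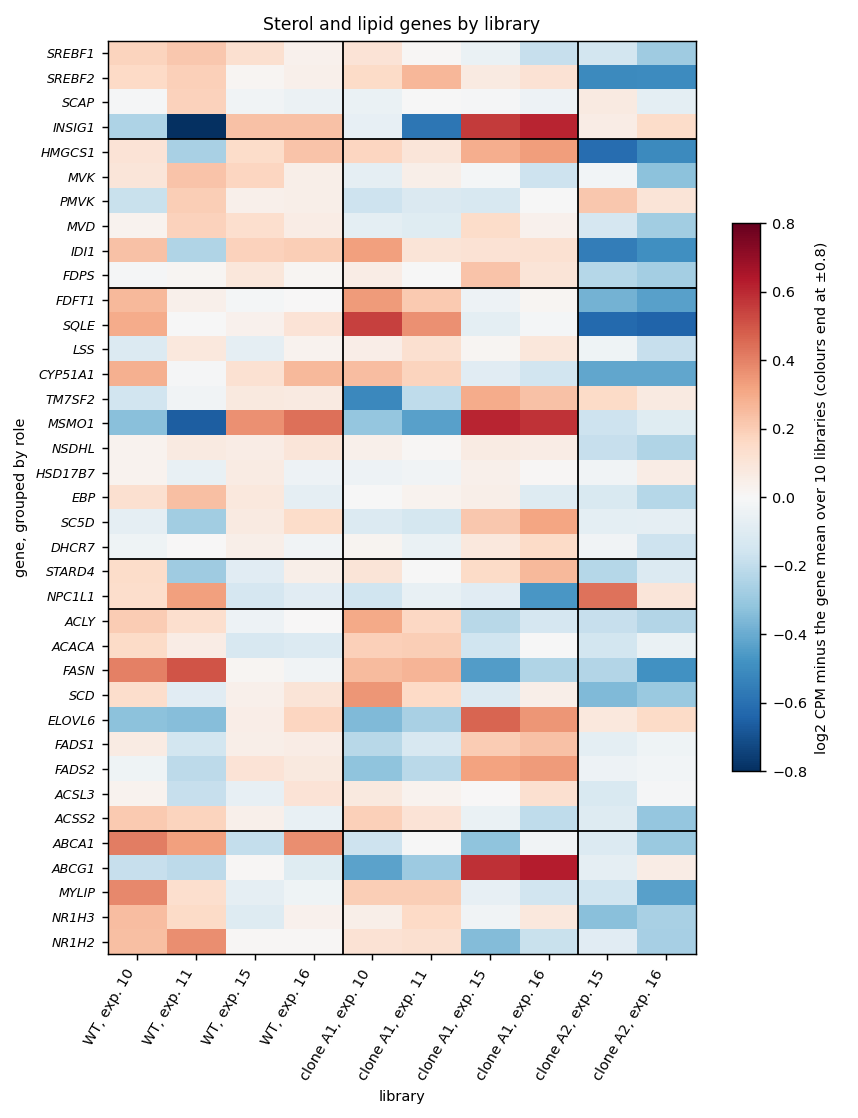
Colours give log2 CPM of each of the 37 genes (vertical axis, grouped by role) in each of the 10 libraries (horizontal axis) minus that gene's mean over the 10 libraries. Clone A2 (last 2 columns) is blue for most sterol enzymes, with both libraries below the other 8 for 13 genes, and WT of experiment 11 differs from WT of experiment 10 for INSIG1, HMGCS1 and IDI1.

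In both clone A2 libraries 13 of the 37 genes lay below each of the other 8 libraries and 0 lay above them, against 9.12% and 9.62% of all genes. The 13 were SREBF2, HMGCS1, MVD, IDI1, FDPS, FDFT1, SQLE, CYP51A1, NSDHL, EBP, SCD, MYLIP and NR1H3, so that 9 of the 17 sterol enzymes were among them. The summed RNA of the 17 enzymes was 1773, 1594, 1781 and 1819 CPM in WT of experiments 10, 11, 15 and 16, 1831, 1740, 1823 and 1822 CPM in clone A1 and 1360 and 1334 CPM in clone A2. Clone A2 was below the rest in both libraries, and WT and clone A1 overlapped.

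With 2 libraries a group, groups failed to overlap for many genes of the table. Clone A2 lay wholly below WT of the same experiments for 26 of the 37 genes and wholly above for 2, where 60.7% of all genes did not overlap (29.7% below, 31% above). Against clone A1 it lay below for 25 and above for 2, where 48.6% of all genes did not overlap (24.3% below, 24.3% above). Clone A1 lay above WT for 13 genes and below for 9 in the later pair, where 53.8% of all genes did not overlap (27.4% above, 26.4% below), and above for 4 and below for 11 in the earlier pair, where 38.3% did not (19% above, 19.4% below). WT of the later pair lay above WT of the earlier pair for 8 genes and below for 13, where 55.5% did not overlap (28.7% above, 26.8% below).

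Differences were also taken within single experiments. In experiment 15 the 17 enzymes had a median difference of −0.24 in log2 CPM between clone A2 and WT, with 14 below 0, and in experiment 16 a median of −0.33 with 14 below 0. Between clone A2 and clone A1 the medians were −0.28 (16 of 17 below 0) and −0.31 (15 of 17 below 0). Between clone A1 and WT the medians were 0.015, 0.031, 0.0059 and 0.011 in experiments 10, 11, 15 and 16, with 7 or 8 of 17 below 0 in each.

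Levels of different genes were set side by side per kilobase of the annotated transcript. By the median of the 4 WT libraries, SCD (190 CPM per kilobase), FDPS (149), ACLY (138) and FASN (113) were highest, followed by CYP51A1 (69.6). SREBF2 stood at 41.5 CPM per kilobase, the 14th of the 37, and SREBF1 at 6.58, the 31st. At the other end ABCG1 (0.496), NPC1L1 (0.205) and ABCA1 (0.0756) were lowest, and their counts of 21 to 111 reads per library limit the precision of their fold changes. In clone A2 SREBF2 stood at 27.2 and 27.3 CPM per kilobase and SREBF1 at 5.35 and 4.84.

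**Figure D2:**
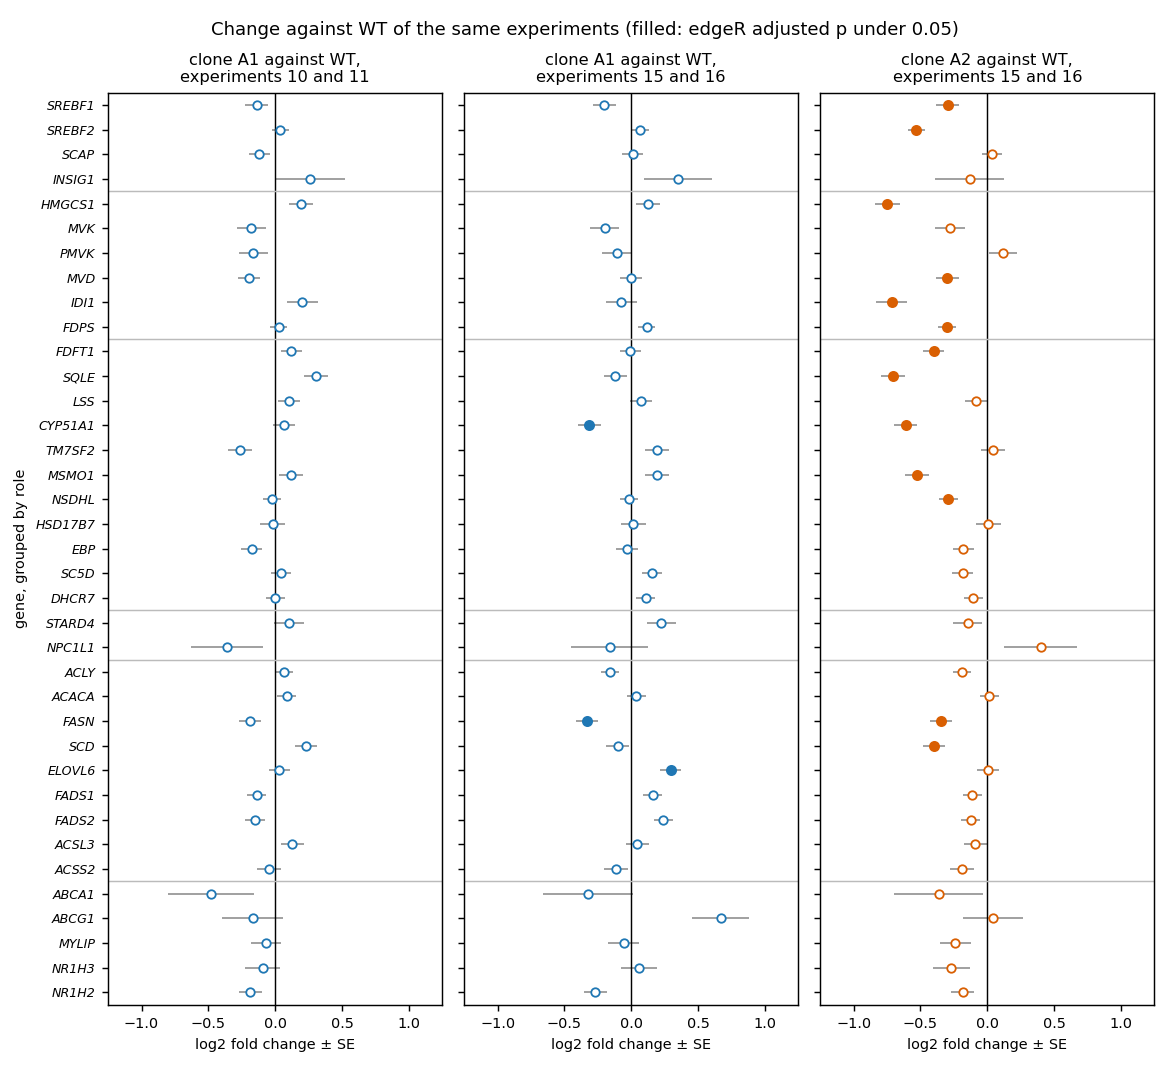
Points give the log2 fold change against WT of the same experiments (horizontal axis) and bars ± 1 SE from edgeR for each of the 37 genes (vertical axis, grouped by role), with 2 libraries per group and filled points at adjusted p under 0.05. In clone A2 the 13 filled points all lie below 0, from −0.75 for HMGCS1 to −0.29 for NSDHL, and in clone A1 there are 3 filled points in experiments 15 and 16 and 0 in experiments 10 and 11.

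Of the 4 regulators, SREBF2 and SREBF1 were lower in clone A2 than in WT, whereas SCAP, the escort protein, and INSIG1, the retention protein, were not called. SREBF2 RNA was 226, 231, 204 and 208 CPM in WT of experiments 10, 11, 15 and 16, 226, 244, 213 and 220 CPM in clone A1 in the same order, and 142 and 143 CPM in clone A2. Both clone A2 libraries were far below the other 8, and WT and clone A1 overlapped. For SREBF2 in clone A2 the log2 fold change was −0.53 (SE 0.063, n = 2 per group, adjusted p = 3.82e-05, edgeR) against WT and −0.60 (SE 0.063, adjusted p = 2.39e-05, edgeR) against clone A1.

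SREBF2 lies on chromosome 22 (41833105 to 41907305), and the 99 other genes between 40 and 60 Mb of that chromosome had a median log2 fold change of −0.56 in clone A2 against WT and −0.52 against clone A1. SREBF2 thus changed by about as much as the median of its neighbours, and what those neighbours share was not tested. Around HMGCS1, IDI1 and SQLE the medians of the regions were −0.0018, 0.011 and 0.027 against WT. Among the other called genes, medians beyond 0.15 in either direction were −0.19 around CYP51A1, −0.16 around SCD and 0.16 around MSMO1 in clone A2 against WT.

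SREBF1 RNA was 32.8, 33.6, 31.7 and 29.7 CPM in WT, 31.2, 29.1, 27.9 and 25.5 CPM in clone A1 and 26.2 and 23.7 CPM in clone A2, in the order of the experiments. Clone A2 lay below each WT library but overlapped with clone A1. In clone A2 against WT the log2 fold change was −0.30 (SE 0.085, adjusted p = 0.025, edgeR), against −0.20 in clone A1 (SE 0.085, adjusted p = 0.17, edgeR), and between the clones it was −0.10 (SE 0.086, adjusted p = 0.65, edgeR). The SREBF1 call was lost without WT of experiment 15, WT of experiment 16 or clone A2 of experiment 16, with adjusted p up to 0.24.

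INSIG1, itself a target of SREBP, varied widely between libraries of the same genotype. Its RNA was 132 and 80.8 CPM in the earlier WT pair and 184 and 185 CPM in the later WT pair. Clone A1 had 150 and 105 CPM in experiments 10 and 11 and 231 and 239 CPM in experiments 15 and 16, with 163 and 173 CPM in clone A2. Within every experiment clone A1 was above WT, and clone A2 was below WT in experiments 15 and 16. INSIG1 was called in no comparison: the log2 fold change between the WT pairs was 0.79 (SE 0.26, adjusted p = 0.097, edgeR) and that of clone A2 against clone A1 −0.48 (SE 0.26, adjusted p = 0.44, edgeR).

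Of the 6 genes of the mevalonate arm, 4 were lower in clone A2 than in WT (9.07% of all genes were) and 3 lower than in clone A1 (3.07% of all genes), and 0 were called in clone A1 against WT in either pair (8.24% of all genes in the later pair and 0.194% in the earlier). HMGCS1, which condenses acetyl-CoA and acetoacetyl-CoA to HMG-CoA, had 270, 209.6, 278 and 294 CPM in WT in the order of the experiments, 282, 268, 306 and 316 CPM in clone A1, and 164 and 176 CPM in clone A2. The clone A2 libraries were the lowest of all. Its log2 fold change was −0.75 against WT (SE 0.091, n = 2 per group, adjusted p = 4.87e-05, edgeR) and −0.87 against clone A1 (SE 0.092, adjusted p = 2.39e-05, edgeR), the largest decrease among the 37 genes in both comparisons.

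IDI1, the isomerase that makes dimethylallyl diphosphate, had 130.4, 94.0, 126 and 127 CPM in WT, 139, 119, 120.0 and 121 CPM in clone A1 and 75.5 and 78.9 CPM in clone A2. Again clone A2 was below the other 8 libraries, the nearest of which was WT of experiment 11. The log2 fold change was −0.71 against WT (SE 0.12, adjusted p = 0.00078, edgeR) and −0.64 against clone A1 (SE 0.12, adjusted p = 0.0038, edgeR). The call against clone A1 was lost without either clone A2 library, with an adjusted p of up to 0.073.

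FDPS, which makes farnesyl diphosphate, had 207, 211, 222 and 211 CPM in WT, 218, 209, 245 and 225 CPM in clone A1 and 178 and 173 CPM in clone A2. MVD, the decarboxylase before IDI1, had 38.9, 43.3, 41.8 and 39.7 CPM in WT, 36.1, 35.7, 42.3 and 39.0 CPM in clone A1 and 34.8 and 31.5 CPM in clone A2. For both genes clone A2 held the lowest 2 values, with a narrower gap than for HMGCS1 and IDI1. The log2 fold changes against WT were −0.30 for FDPS (SE 0.066, adjusted p = 0.0046, edgeR) and −0.30 for MVD (SE 0.084, adjusted p = 0.022, edgeR), and against clone A1 −0.42 for FDPS (SE 0.066, adjusted p = 0.00085, edgeR) and −0.30 for MVD (SE 0.084, adjusted p = 0.059, edgeR). Without WT of experiment 15 or clone A2 of experiment 16 the FDPS call against WT was lost (adjusted p up to 0.073), and the MVD call was lost without these or without WT of experiment 16 (up to 0.23).

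MVK and PMVK, the kinases that phosphorylate mevalonate, were called in no comparison. MVK ranged from 14.3 to 21.0 CPM over the 10 libraries, with a log2 fold change of −0.28 in clone A2 against WT (SE 0.11, adjusted p = 0.095, edgeR). PMVK ranged from 18.9 to 24.9 CPM, and in clone A2 against WT it was the one gene of this arm with a value above 0 (0.12, SE 0.11, adjusted p = 0.51, edgeR).

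**Figure D3:**
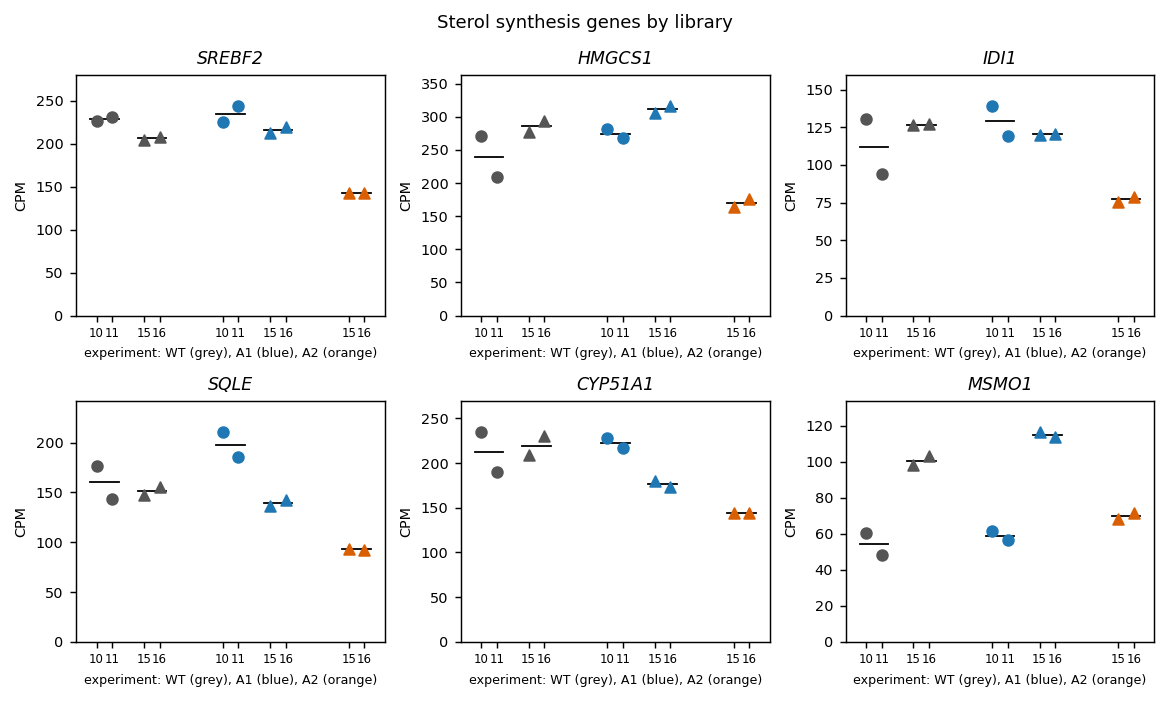
Each point is the CPM (vertical axis, from 0) of 1 library, by group and experiment number (horizontal axis), for SREBF2, HMGCS1, IDI1, SQLE, CYP51A1 and MSMO1, with circles for experiments 10 and 11, triangles for experiments 15 and 16 and lines at the mean of 2 libraries. Clone A2 is below the other 8 libraries for the first 5 genes, and MSMO1 is higher in WT and clone A1 of experiments 15 and 16 than in experiments 10 and 11.

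Of the 11 enzymes from squalene to cholesterol, 5 were lower in clone A2 than in WT (9.07% of all genes) and 5 lower than in clone A1 (3.07%), with 4 called in both. SQLE, the squalene epoxidase, had 177, 144, 148 and 155 CPM in WT in the order of the experiments, 210.4, 185, 136 and 143 CPM in clone A1 and 93.7 and 92.4 CPM in clone A2. The clone A2 values were the lowest, and clone A1 was above WT in experiments 10 and 11 and below WT in experiments 15 and 16. The log2 fold change in clone A2 was −0.70 against WT (SE 0.089, n = 2 per group, adjusted p = 6.3e-05, edgeR) and −0.58 against clone A1 (SE 0.089, adjusted p = 0.00065, edgeR). The SQLE difference between clone A1 and WT was 0.30 in experiments 10 and 11 (SE 0.088, adjusted p = 0.27, edgeR) and −0.12 in experiments 15 and 16 (SE 0.088, adjusted p = 0.47, edgeR), and the change between the pairs was −0.42 (SE 0.12, adjusted p = 0.088, edgeR).

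FDFT1, the squalene synthase, had 144, 124, 119 and 121 CPM in WT, 153, 139, 117 and 122 CPM in clone A1 and 92.6 and 89.0 CPM in clone A2. Both clone A2 values were below all others. Its log2 fold change was −0.40 against WT (SE 0.078, adjusted p = 0.0021, edgeR) and −0.40 against clone A1 (SE 0.078, adjusted p = 0.0053, edgeR). Against clone A1 the call was lost without clone A1 or clone A2 of experiment 16, with an adjusted p of up to 0.082.

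CYP51A1, the lanosterol demethylase, was the one sterol enzyme called in clone A1 as well. Its RNA was 234, 190.5, 209 and 230.2 CPM in WT, 228, 217, 180.2 and 173 CPM in clone A1 and 144 and 144 CPM in clone A2. In experiments 15 and 16 WT was highest, clone A1 intermediate and clone A2 lowest, with no overlap between the 3 groups, and in experiments 10 and 11 WT and clone A1 overlapped. Against WT the log2 fold change was −0.31 in clone A1 (SE 0.084, adjusted p = 0.030, edgeR) and −0.61 in clone A2 (SE 0.085, adjusted p = 0.00014, edgeR), and between the clones −0.30 (SE 0.085, adjusted p = 0.061, edgeR). The clone A1 call was lost without any one of the 4 WT and clone A1 libraries of that pair, with an adjusted p of up to 0.24, and the clone A2 call was kept in all 10 fits that left out 1 library. Reads of CYP51A1, FDPS and HSD17B7 may be shared with processed copies of these genes, since how such reads were counted is not given in the sources used here.

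MSMO1, the sterol C4-demethylating oxidase, differed both between clones and between experiment pairs. It had 60.5 and 48.2 CPM in the earlier WT pair and 98.0 and 103 CPM in the later WT pair. In clone A1 it had 61.6 and 56.3 CPM and then 116 and 114 CPM, and in clone A2 68.0 and 71.3 CPM. The later pair was above the earlier pair in WT and in clone A1, and clone A2 lay between them. The log2 fold change between the WT pairs was 0.89 (SE 0.091, adjusted p = 1.34e-05, edgeR), that of clone A2 against WT of its own pair −0.53 (SE 0.090, adjusted p = 0.00072, edgeR) and that of clone A2 against clone A1 −0.72 (SE 0.090, adjusted p = 0.00011, edgeR). The 33 other genes between 160 and 180 Mb of chromosome 4, where MSMO1 lies, had a median of 0.44 between the WT pairs and of 0.16 in clone A2 against WT.

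SC5D, the lathosterol oxidase, had 99.2, 86.1, 109.6 and 116 CPM in WT, 96.6, 94.4, 121 and 129.6 CPM in clone A1 and 98.7 and 99.4 CPM in clone A2. It was higher in the later WT pair (0.28 on the log2 scale, SE 0.075, adjusted p = 0.019, edgeR) and lower in clone A2 than in clone A1 (−0.34, SE 0.075, adjusted p = 0.013, edgeR), whereas the difference from WT was −0.19 (SE 0.075, adjusted p = 0.11, edgeR). NSDHL, which removes the C4 carboxyl group, varied little among the 8 WT and clone A1 libraries (58.6 to 62.3 CPM) and stood at 51.3 and 49.2 CPM in clone A2, below each of them. Its log2 fold change was −0.29 against WT (SE 0.068, adjusted p = 0.0073, edgeR) and −0.27 against clone A1 (SE 0.068, adjusted p = 0.027, edgeR). The NSDHL call against WT was lost without WT or clone A2 of experiment 16, with an adjusted p of up to 0.095. Against clone A1 it was lost without any one of the 6 KO libraries, with an adjusted p of up to 0.23. The SC5D call between WT pairs was lost without WT of experiment 11, 15 or 16 (up to 0.16), and that against clone A1 without clone A1 of experiment 16 or either clone A2 library (up to 0.13).

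The other 5 enzymes of this arm, LSS, TM7SF2, HSD17B7, EBP and DHCR7, were called in no comparison. In clone A2 against WT their log2 fold changes ran from −0.18 for EBP (SE 0.080, adjusted p = 0.14, edgeR) to 0.041 for TM7SF2 (SE 0.091, adjusted p = 0.81, edgeR). HSD17B7, the 3-ketosteroid reductase, was the steadiest, at 14.0 to 15.3 CPM over all 10 libraries and 0.0067 on the log2 scale in clone A2. DHCR7, the last reductase of one branch, had −0.11 in clone A2 against WT (SE 0.070, adjusted p = 0.35, edgeR). STARD4, a carrier of cholesterol in the cytosol, and NPC1L1, a sterol importer of the gut, were not called either. STARD4 stood between 56.0 and 81.9 CPM and NPC1L1 between 0.711 and 1.37 CPM.

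**Figure D4:**
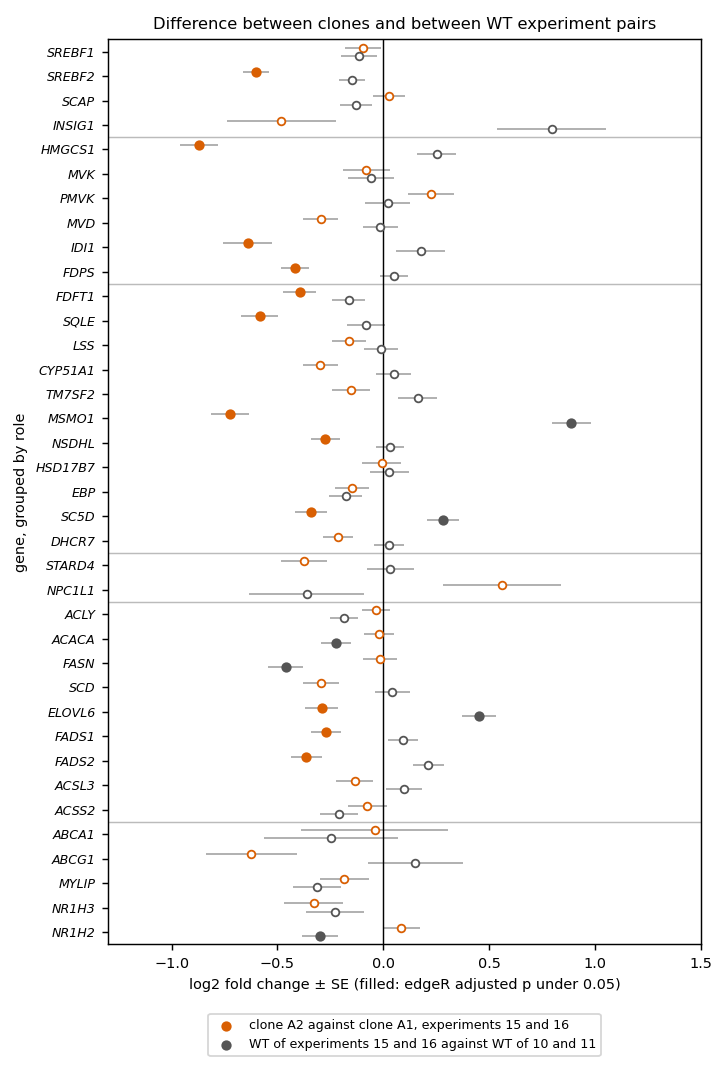
Points give log2 fold changes (horizontal axis) and bars ± 1 SE from edgeR for the 37 genes (vertical axis, grouped by role), for clone A2 against clone A1 (orange) and for WT of experiments 15 and 16 against WT of experiments 10 and 11 (grey), filled at adjusted p under 0.05. The 12 filled orange points all lie below 0, from −0.87 for HMGCS1 to −0.27 for FADS1, and the 6 filled grey points lie on both sides, from −0.46 for FASN to 0.89 for MSMO1.

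Of the 9 fatty acid genes, 2 (22.2%) were lower in clone A2 than in WT, where 16.4% of all genes were called and 9.07% were lower. In clone A2 against clone A1, 3 were lower (3.07% of all genes), and clone A1 differed from WT in 2 in experiments 15 and 16 (8.24% of all genes). FASN, the fatty acid synthase, had 1085 and 1163 CPM in the earlier WT pair and 829.8 and 804 CPM in the later WT pair. Clone A1 had 979 and 994 CPM and then 603 and 695 CPM, with 698 and 587 CPM in clone A2. Values of the later pair were below those of the earlier pair in both WT and clone A1, and within each pair the KO libraries were below WT. Against WT of the later pair the log2 fold change was −0.33 in clone A1 (SE 0.082, adjusted p = 0.020, edgeR) and −0.35 in clone A2 (SE 0.082, adjusted p = 0.0082, edgeR), and between the clones −0.016 (SE 0.082, adjusted p = 0.95, edgeR). Between the WT pairs it was −0.46 (SE 0.082, adjusted p = 0.0016, edgeR). In experiments 10 and 11 clone A1 was at −0.19 (SE 0.082, adjusted p = 0.45, edgeR). The 64 other genes between 80 and 100 Mb of chromosome 17 around FASN had a median of −0.20 in that comparison. Their median was −0.12 in clone A1 and −0.081 in clone A2 against WT of the later pair, and −0.036 between the WT pairs. A replicate block by experiment number ended the FASN call in clone A1 of the later pair. The clone A1 call was lost without WT of experiment 15 or 16 or clone A1 of experiment 15 (adjusted p up to 0.20) and the clone A2 call without WT of experiment 15 or clone A2 of experiment 16 (up to 0.16), while the call between WT pairs was kept in all 10 fits.

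SCD, the stearoyl-CoA desaturase and the most abundant of the 37 genes per kilobase, had 1042, 888, 972 and 1016 CPM in WT, 1211, 1057, 877 and 976 CPM in clone A1 and 740.4 and 770.1 CPM in clone A2. Clone A2 held the lowest 2 values. The log2 fold change was −0.40 against WT (SE 0.083, adjusted p = 0.0037, edgeR) and −0.29 against clone A1 (SE 0.083, adjusted p = 0.060, edgeR). ACLY, which makes cytosolic acetyl-CoA, stood at 482 to 695 CPM over the libraries and had −0.19 in clone A2 (SE 0.066, adjusted p = 0.059, edgeR).

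The elongase gene ELOVL6 and the desaturase genes FADS2 and FADS1 had their highest values in clone A1 of experiments 15 and 16. ELOVL6, which elongates palmitate, had 27.7 and 27.4 CPM in the earlier WT pair and 36.2 and 39.1 CPM in the later WT pair, 27.2, 29.1, 48.1 and 44.4 CPM in clone A1 and 36.9 and 38.6 CPM in clone A2. In experiments 15 and 16 both clone A1 libraries were above the other 4, and WT and clone A2 overlapped. The log2 fold change was 0.30 in clone A1 against WT (SE 0.079, adjusted p = 0.029, edgeR), −0.29 in clone A2 against clone A1 (SE 0.079, adjusted p = 0.046, edgeR) and 0.45 between the WT pairs (SE 0.080, adjusted p = 0.0015, edgeR). The 59 other genes between 100 and 120 Mb of chromosome 4 around ELOVL6 had medians of 0.17 in clone A1 against WT and 0.37 between the WT pairs. The call in clone A1 was lost without any one of the 4 WT and clone A1 libraries of the pair (up to 0.26) and that between the clones was kept in 2 of 10 fits that left out 1 library (adjusted p up to 0.34).

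FADS2, which starts the desaturation of polyunsaturated fatty acids, had 72.4, 64.2, 80.1 and 78.4 CPM in WT, 59.4, 63.8, 92.8 and 94.3 CPM in clone A1 and 72.1 and 73.2 CPM in clone A2. FADS1, the next desaturase, had 208, 179.6, 206 and 207 CPM in WT, 170.3, 181, 228 and 233 CPM in clone A1 and 188 and 194 CPM in clone A2. For both genes clone A1 was above WT and WT above clone A2 in experiments 15 and 16, with no overlap. The log2 fold changes of clone A2 against clone A1 were −0.36 for FADS2 (SE 0.073, adjusted p = 0.0060, edgeR) and −0.27 for FADS1 (SE 0.072, adjusted p = 0.040, edgeR), and those of clone A1 against WT were 0.24 for FADS2 (SE 0.073, adjusted p = 0.053, edgeR) and 0.16 for FADS1 (SE 0.072, adjusted p = 0.19, edgeR). The FADS2 call was lost without clone A1 of experiment 16 or either clone A2 library (up to 0.073), and the FADS1 call was kept in 2 of 10 fits that left out 1 library (up to 0.28). ACACA, the acetyl-CoA carboxylase, was lower in the later WT pair (−0.22 on the log2 scale, SE 0.071, adjusted p = 0.043, edgeR), a call kept in 3 of 10 such fits (up to 0.17), and had 0.015 in clone A2 against WT. ACSL3 and ACSS2, which activate long-chain fatty acids and acetate, were called in no comparison.

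**Figure D5:**
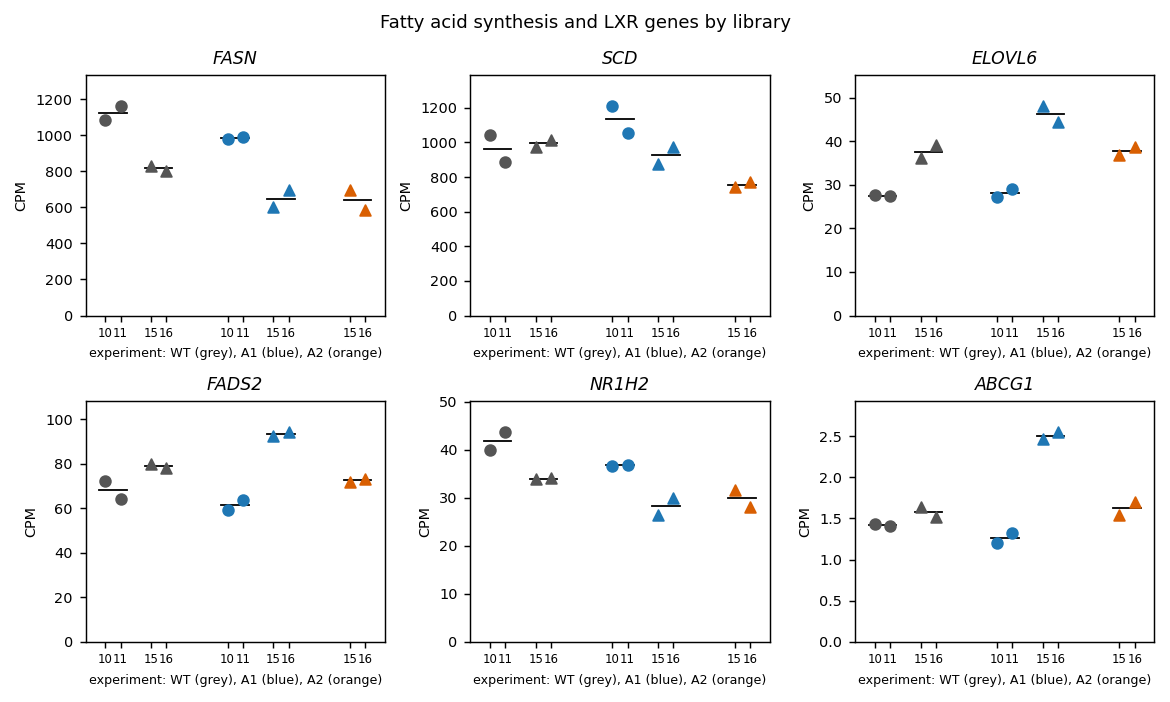
Each point is the CPM (vertical axis, from 0) of 1 library, by group and experiment number (horizontal axis), for FASN, SCD, ELOVL6, FADS2, NR1H2 and ABCG1, with circles for experiments 10 and 11, triangles for experiments 15 and 16 and lines at the mean of 2 libraries. FASN and NR1H2 lie lower and ELOVL6 and FADS2 higher in WT and clone A1 of experiments 15 and 16 than in experiments 10 and 11, and ABCG1 is highest in clone A1 of that pair (2.47 and 2.55 CPM).

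Of the 5 LXR genes, 0 were called in either clone against WT, where 16.4% of all genes were called in clone A2 and 8.24% in clone A1 of the later pair. NR1H2, which encodes LXR-beta, had 39.9 and 43.6 CPM in the earlier WT pair, 33.9 and 34.0 CPM in the later WT pair, 36.6, 36.9, 26.5 and 29.9 CPM in clone A1 and 31.7 and 28.1 CPM in clone A2. Within each pair WT was above the KO libraries, and the later WT pair was below the earlier one. Between the WT pairs the log2 fold change was −0.30 (SE 0.086, adjusted p = 0.026, edgeR), beside a median of −0.19 over the 386 other genes between 40 and 60 Mb of chromosome 19, and the call was lost without WT of experiment 11, 15 or 16 (up to 0.14). In experiments 15 and 16 NR1H2 was at −0.27 in clone A1 (SE 0.087, adjusted p = 0.068, edgeR) and −0.19 in clone A2 (SE 0.087, adjusted p = 0.17, edgeR). The same 386 genes had medians of −0.17 in clone A1 and −0.15 in clone A2 against WT of that pair. In clone A1 against WT of the earlier pair their median was −0.12.

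ABCG1, a sterol exporter and a classical LXR target, had 1.64 and 1.52 CPM in WT, 2.47 and 2.55 CPM in clone A1 and 1.55 and 1.70 CPM in clone A2 of experiments 15 and 16. Clone A1 was above the rest, at a log2 fold change of 0.67 against WT (SE 0.22, adjusted p = 0.068, edgeR) that did not pass the threshold, and −0.17 in experiments 10 and 11 (SE 0.23, adjusted p = 0.79, edgeR). ABCA1, the other exporter, stood at 0.480 to 0.824 CPM and was at −0.36 in clone A2 (SE 0.33, adjusted p = 0.52, edgeR). MYLIP, the ligase that degrades the LDL receptor, and NR1H3, which encodes LXR-alpha, were lowest in clone A2 but not called, at −0.24 (SE 0.12, adjusted p = 0.18, edgeR) and −0.27 (SE 0.14, adjusted p = 0.21, edgeR).

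Further genes of the pathway were counted from lists by function, beside 9.07% of all genes lower and 7.33% higher in clone A2 than in WT. Of 12 other sterol genes, 3 were lower (25%) and 0 higher in that comparison: ACAT2, which makes acetoacetyl-CoA for HMGCS1 (−0.51, SE 0.067, adjusted p = 8.57e-05, edgeR), GGPS1, which makes geranylgeranyl diphosphate (−0.28, adjusted p = 0.026, edgeR), and LBR, a sterol C14 reductase of the nuclear envelope (−0.44, adjusted p = 0.0019, edgeR). The regions around GGPS1 and LBR had medians of −0.30. ACAT2 was at 125 and 132 CPM in WT, 129 and 125 CPM in clone A1 and 92.3 and 88.0 CPM in clone A2 of experiments 15 and 16. It was the one gene of that list called in clone A2 against clone A1 (−0.50, SE 0.067, adjusted p = 0.00023, edgeR). In clone A1 against WT of that pair, 1 of the 12 was called, LBR (−0.31, adjusted p = 0.029, edgeR), beside a regional median of −0.26. That is 8.33% of the list, against 8.24% of all genes.

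Among 14 genes of sterol transport, esterification and storage, 5 were lower and 1 higher in clone A2 than in WT (42.9% called, against 16.4% of all genes). The lower genes were NPC2 and LIPA, which release cholesterol in lysosomes (−0.42 and −0.35), SOAT1, which esterifies it (−0.34), TMEM97, a regulator of NPC1 (−0.39), and GRAMD1A, a transfer protein (−0.21), and OSBPL2 was higher (0.26). The region around LIPA had a median of −0.17. Of these TMEM97 was also lower than in clone A1 (−0.33, SE 0.077, adjusted p = 0.020, edgeR), and GRAMD1A was lower in clone A1 than in WT (−0.25, adjusted p = 0.034, edgeR), beside a regional median of −0.17.

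Among 19 other genes of fatty acid and triglyceride synthesis, 3 were lower (TECR −0.35, SLC25A1 −0.43, MCAT −0.32) and 3 higher (SCD5 0.22, GPAM 0.39, AGPAT2 0.34) in clone A2 than in WT (31.6% called, against 16.4% of all genes). The regions around TECR, GPAM and AGPAT2 had medians of −0.16, −0.16 and 0.30. SLC25A1, the citrate carrier, and MCAT lie on chromosome 22, where the medians of their regions were −0.39 and −0.56. PLIN2, a coat protein of lipid droplets, had 14.6 and 14.0 CPM in WT, 8.43 and 7.46 CPM in clone A1 and 15.8 and 15.9 CPM in clone A2 of experiments 15 and 16, and 12.1 and 12.8 CPM in WT and 7.82 and 8.70 CPM in clone A1 of experiments 10 and 11. It was lower in clone A1 than in WT in both pairs (−0.84, SE 0.11, adjusted p = 0.00015, edgeR, and −0.59, SE 0.11, adjusted p = 0.028, edgeR) and higher in clone A2 than in clone A1 (1.00, SE 0.11, adjusted p = 2.39e-05, edgeR). In clone A1 against WT of the later pair TECR was also lower (−0.31, adjusted p = 0.033, edgeR), beside a regional median of −0.19, and in clone A2 against clone A1 SLC25A1 (−0.42) and MCAT (−0.43) were lower, beside regional medians of −0.53 and −0.52, and GPAM was higher (0.31).

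Of 14 genes of fatty acid oxidation, EHHADH was higher (0.42, adjusted p = 0.0024, edgeR) and PPARA, on chromosome 22 beside a regional median of −0.56, lower (−0.29, adjusted p = 0.041, edgeR) in clone A2 than in WT, and 0 were called in either comparison of clone A1 with WT (8.24% of all genes in the later pair and 0.194% in the earlier). For clone A2 this is 14.3% of the list, against 16.4% of all genes. Of 8 LXR partners and further LXR-linked genes, 1 was called in clone A2 against WT (12.5%), RXRA, which was higher (0.33, adjusted p = 0.010, edgeR), where its region had a median of 0.30.

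Between the WT pairs 4 of the 12 other sterol genes were called (33.3%, against 16.4% of all genes), 3 higher (INSIG2, ERG28 and COQ2) and 1 lower. Of 14 transport genes 3 were lower (21.4%), NPC2, SCARB1 and GRAMD1A. Of 19 fatty acid and triglyceride genes 6 were called (31.6%), with HSD17B12, SCD5, ACSL1 and AGPAT2 higher and SLC25A1 and MID1IP1 lower. Of 14 oxidation genes 1 was higher (7.14%), ECHS1. Of 8 LXR-linked genes 4 were lower (50%), among them RXRB, ABCA7 and NCOR1. The log2 fold changes of the genes named ran from −0.49 for ABCA7 to 0.42 for COQ2. Regional medians beyond 0.15 lay around COQ2 and SCD5 (0.39), ACSL1 (0.37), ECHS1 (0.24) and ABCA7 (−0.21). For the change of the clone A1 effect between the pairs, LBR (−0.52, adjusted p = 0.028, edgeR) and AGPAT2 (0.47, adjusted p = 0.034, edgeR) were called, beside regional medians of −0.315 and 0.245.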

How the data were processed

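RNA of T47D spheroids was sequenced from 10 libraries in 5 groups of 2 (WT and clone A1 of experiments 10 and 11, and WT, clone A1 and clone A2 of experiments 15 and 16). Groups and experiment numbers were taken from the sample titles. The authors prepared stranded mRNA libraries, used HISAT2 to align paired-end reads to GRCh38 (NCBI annotation), and deposited raw counts per NCBI gene after removing genes with a 0 in any library. The submitters' processing notes also name StringTie. The counting step, and whether it used strand, is not given in the sources used here, so reads of overlapping antisense genes cannot be told apart. RNA extraction is described with a different kit in the labels and in the study's methods. Total counts were 40077369 to 51311482 per library, so that counting error bears mainly on genes with low counts.

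Gene identifiers were matched to symbols for 13885 of 13920 genes, 35 being unmatched. Counts were fitted in 1 model over the 5 groups with edgeR 4.0.16 in R 4.3.3 (TMM factors, robust quasi-likelihood test, 5 residual degrees of freedom), with Benjamini-Hochberg adjustment over all genes at 0.05, two-sided. Experiments 10 and 11 and experiments 15 and 16 were treated as separate groups, clone A2 being in the latter alone, although no label calls them batches. Clones were compared within a pair, and WT and the clone A1 effect between pairs. SE was taken as the absolute log2 fold change divided by the square root of the F statistic of edgeR's test. CPM used TMM-scaled totals, and log2 CPM a prior count of 2. Levels per kilobase used the Ensembl canonical transcript. Medians of fold changes were taken over 20 Mb regions of at least 20 genes without the gene itself, and given when beyond 0.15.

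Alternatives were DESeq2 1.42.0, RLE factors, a replicate block by experiment number, a filter on mean counts of at least 10, the compared libraries alone and each library left out in turn. No library pair of the 45 agreed within counting noise (lowest chi-square per degree of freedom 6.74). The methods were tested on simulated data. The 37 genes and the lists were chosen with earlier results of these data known. Each called gene of the 37 was named. Values in every library were given for SREBF1, SREBF2, INSIG1 and up to 5 called genes per role with the largest change. Promoter stretches of sterol enzymes without the sterol element core were added after values were seen. KRT19 and the raw reads were not analysed here, and some genes of the further lists are not reported here.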

Additional observations from a re-analysis of the deposited data

Results flagged for a closer look

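In 5 of 74 groups of 4 libraries (WT or clone A1 over both experiment pairs) 1 library stood apart from the other three by Dixon's 95% limit, where chance gives about 1 in 20. They were SCAP at 127.5 CPM in WT of experiment 11, IDI1 at 94.0 CPM in WT of experiment 11, IDI1 at 139 CPM in clone A1 of experiment 10, FADS1 at 179.6 CPM in WT of experiment 11 and ABCA1 at 0.529 CPM in WT of experiment 15. WT of experiment 11 accounted for 3 of the 5.

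The effects of the clones against the WT libraries they share differed in 12 of the 37 genes, by edgeR's test of clone A2 against clone A1 in experiments 15 and 16. The log2 differences were −0.87 for HMGCS1, −0.72 for MSMO1, −0.64 for IDI1, −0.60 for SREBF2, −0.58 for SQLE, −0.42 for FDPS, −0.40 for FDFT1, −0.36 for FADS2, −0.34 for SC5D, −0.29 for ELOVL6 and −0.27 for both NSDHL and FADS1. Both clone A2 libraries were below both clone A1 libraries in each of the 12 genes.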

How the results depend on the processing

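Of the 34 calls of single genes, DESeq2, RLE factors and the filter on a mean count of at least 10 kept all 34. With the compared libraries alone ACACA, SC5D and NR1H2 were lost between the WT pairs (adjusted p 0.11, 0.082 and 0.063), and no call changed direction under any alternative. With a replicate block by experiment number, FASN in clone A1 was lost (adjusted p = 0.069) and the genes called of the 37 rose from 3 to 9 for clone A1 in the later pair, from 0 to 4 in the earlier pair, from 6 to 16 between the WT pairs and from 0 to 8 for the change of the clone A1 effect. For clone A2 they went from 13 to 17 against WT and from 12 to 18 against clone A1. Calls over all genes under the block were 2411 (1147 without it), 3673 (2283), 1213 (576), 382 (27), 4039 (2276) and 1247 (348) for clone A1 and clone A2 against WT in experiments 15 and 16, clone A2 against clone A1, clone A1 in experiments 10 and 11, the WT pairs and the change. Libraries of the same experiment correlated at 0.0844 to 0.151 after group means were removed. These values are low and positive, and the labels do not say whether libraries of an experiment share a culture or day. Calls elsewhere in the text rest on the fit without the block unless another is named.

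With the compared libraries alone, calls over all genes were 1834 for clone A1 in experiments 15 and 16 (8 of the 37), 12 for clone A1 in experiments 10 and 11 and 1208 between the WT pairs (3 of the 37). DESeq2 called 63 genes for clone A1 in experiments 10 and 11 and 533 for the change (3 of the 37). When each library was left out in turn, calls over all genes ranged from 343 to 2000 for clone A1 in experiments 15 and 16 (0 to 8 of the 37), from 1020 to 3199 for clone A2 against WT (8 to 15), from 268 to 959 for clone A2 against clone A1 (5 to 17), from 7 to 1361 for clone A1 in experiments 10 and 11 (0 to 8), from 820 to 3658 between the WT pairs (3 to 14) and from 88 to 1123 for the change (0 to 5). A group left with 1 library was assumed to vary like the others. The lowest counts of the 37 were those without WT of experiment 15 or 16 or clone A1 of experiment 15 (0) for clone A1 in that pair, without clone A2 of experiment 16 (8 and 5) for clone A2, and without WT of experiment 15 or 16 (3) between the WT pairs. The highest count for clone A1 in experiments 10 and 11 (8), for the WT pairs (14) and for the change (5) came without WT of experiment 10. The causes were not tested.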

Other observations

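Replicate libraries differed to unequal extents. By chi-square per degree of freedom over all genes, WT of experiments 10 and 11 (25.1) and clone A1 of experiments 15 and 16 (25.2) were the least alike, against 6.74 to 10.2 for the other three replicate pairs. Over the 17 sterol enzymes the median absolute difference in log2 CPM between WT of experiments 10 and 11 was 0.197, against 0.0663 to 0.0786 for the other 4 replicate pairs, and over all genes it was 0.152 against 0.0826 to 0.0998. In WT of experiment 11 INSIG1 was lower than in WT of experiment 10 by a log2 difference of −0.71, IDI1 by −0.47, HMGCS1 by −0.37, MSMO1 by −0.33 and SQLE by −0.30. In clone A1 of the same experiments the differences were −0.51 for INSIG1, −0.22 for IDI1, −0.074 for HMGCS1, −0.13 for MSMO1 and −0.18 for SQLE. With 1 library on each side these differences have no replicate check.

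SAMHD1 RNA differed between the clone A1 libraries of the pairs (change of the clone A1 effect −1.81 on the log2 scale, SE 0.14, adjusted p = 1.2e-06, edgeR). Clone A2 had SAMHD1 levels of 23.6 and 20.2 CPM and clone A1 of experiments 10 and 11 of 22.5 and 23.0 CPM.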
